A study of Mus musculus with 12 samples.

Results

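Imprinted genes, which are transcribed mainly from the copy inherited from 1 parent, were followed here in P19 cells during neuronal differentiation. The members were 10 genes chosen by name: H19, Igf2, Igf2r, Meg3, Rian, Dlk1, Peg3, Peg10, Mest and Cdkn1c. A read was assigned to a member when its gene name matched, its transcript belonged to the mRNA class of the read table, and its poly(A) tail call carried the quality tag PASS. Of the 14042 genes with at least 1 kept read, 6 were members, and these 6 genes held 1490 of the 4274320 kept reads (0.0349%). Only 4 members (Mest, Peg10, Igf2 and Peg3) reached the 30 reads over all libraries that the abundance test required.

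P19 is a mouse embryonal carcinoma line, wild type in every library. Cells were sampled before treatment (D0) and after 2, 4 and 6 days (D2, D4 and D6) in NDiff 227 medium with 500 nM retinoic acid, with 3 biological replicates per day. Native poly(A) RNA was sequenced on nanopores, so that each read came from 1 RNA molecule and showed the transcript as well as how long its poly(A) tail was. D2 was the shallowest day, with 120326 to 241064 kept reads per library against 449406 to 613756 at D0, 252203 to 435389 at D4 and 271499 to 428800 at D6. Each of the 13 sequencing runs held 1 day, so run and day cannot be told apart.

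In mammals the parental copies of an imprinted gene are told apart by DNA methylation laid down in the egg or the sperm, on the silent or the expressed copy depending on the cluster, and clusters of such genes share an imprinting control region. Many paternally expressed members promote fetal or placental growth, whereas several maternally expressed ones restrain it. Igf2 encodes an insulin-like growth factor, Igf2r a receptor that clears it, and H19 a noncoding RNA from the same cluster as Igf2. Cdkn1c encodes the cell cycle inhibitor p57. Dlk1 encodes a transmembrane regulator of differentiation and lies in one cluster with the maternally expressed noncoding RNAs Meg3 and Rian. Peg10 derives from a retroelement and is needed for placenta formation, Peg3 encodes a zinc finger protein, and Mest encodes a protein of the alpha/beta hydrolase fold. The reads used here were not separated by parental allele, so every value below is the sum of both copies.

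Pluripotency markers were lower and neuron markers higher at D6. All 4 pluripotency genes tested were called lower at D6 than at D0 and all 12 neuron genes higher (limma-voom, adjusted p of at most 0.05). Of all 9309 genes tested, 1739 were called lower and 1771 higher. The summed level of the pluripotency list was between 2016 and 2253 CPM (reads per 1000000 after scaling) in the D0 libraries and between 184 and 229 CPM at D6, with Zfp42, Klf4, Fgf4 and Dppa5a at 0 throughout. Most of the fall was that of Pou5f1 (1721 CPM at D0 and 0.92 CPM at D6), while Sox2, which neural progenitors also express, went from 266 to 198 CPM and made up most of the D6 sum. That of the neuron list was 624 to 668 CPM at D0 and 3465 to 3640 CPM at D6. At D2 it was 386 to 609 CPM, below D0, with Gap43 called higher and Stmn2 and Tubb3 called lower. Neural progenitor genes summed to 293 to 343 CPM at D0 and 1312 to 1507 CPM at D6. Lists for mesoderm and fibroblasts (at most 34.97 CPM in any library) and striated muscle (at most 12.7 CPM) were low, the 6 trophoblast markers had no read, and the endoderm list (255 to 271 CPM at D0, 36.6 to 49.4 CPM at D2 and 135 to 169 CPM at D6) lacked Sox17, Gata4, Afp, Ttr and Apoa1. These are bulk RNA samples, in which fewer cells of a type and less RNA per cell cannot be told apart, and the part of the marker changes in the results below was not tested.

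Peg10 was less abundant than at D0 on every later day, and Mest was less abundant at D6 but not detectably so at D4. Igf2 was lowest at D2, on 3 reads and without a call, and varied widely between libraries afterwards. Peg3 showed no difference that passed the test. At D6 against D0, 2 of the 4 tested members were called (limma-voom, adjusted p of at most 0.05), both lower. Over all 9309 genes tested 37.7% were called, 18.7% being lower. At D2 Peg10 and Mest were likewise called lower, where 10.8% of all genes were called, 6.16% being lower. At D4 only Peg10 was called, against 25.4% of all genes and 12.5% lower. Between D2 and D4 no member was called (3.10% of all genes), although Mest and Igf2 passed in alternatives given with each gene, and between D4 and D6 only Mest was, again lower (8.46% of all genes, 4.34% lower). The median log2 fold change of the 4 tested members at D6 against D0 was -0.60, against 0.00 over all genes. For these 2 members no D6 library overlapped a D0 library, as held for 24.0% of all genes in the lower direction. The comparisons with D0 share the D0 libraries and are not independent of each other.

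**Figure D1:**
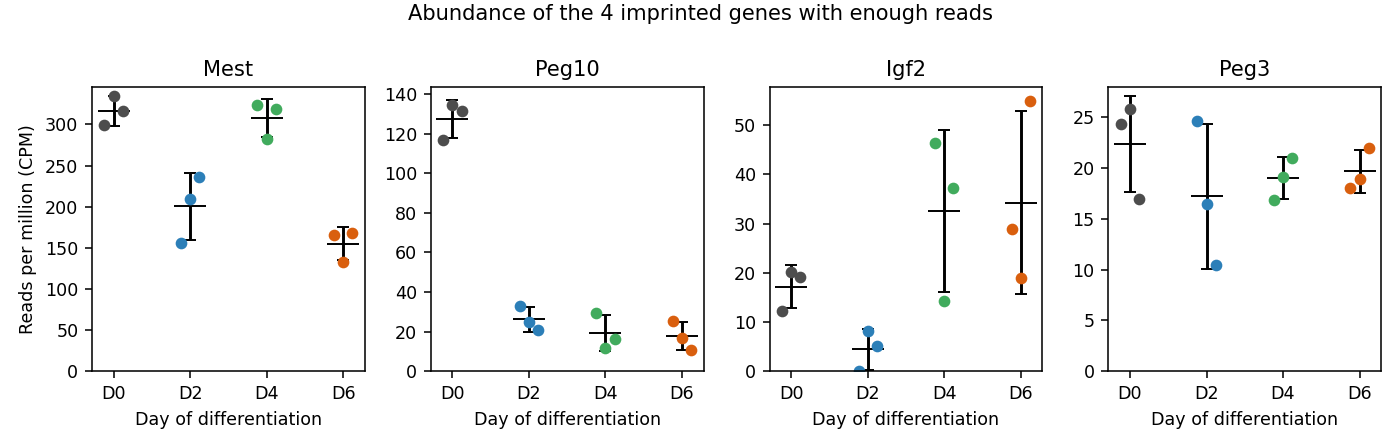
Reads per 1000000 (CPM, vertical axis, each panel on its own scale from 0) of Mest, Peg10, Igf2 and Peg3 by day of differentiation. Points are the 3 libraries of a day and bars the mean with its SD. Every D6 library of Mest and Peg10 lies under every D0 library, whereas the libraries of Peg3 overlap on all days.

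Mest (ENSMUSG00000051855.15, chr6:30723547-30748465 of mm10, plus strand) had 1071 reads, the most of any member. Its level was 299, 335 and 316 CPM in D0 replicates 1 to 3, 156, 210 and 235 CPM at D2, 324, 282 and 319 CPM at D4, and 166, 132 and 167 CPM at D6. D0 and D4 libraries thus overlapped, and all D2 and D6 libraries lay below them, as held for 18.2% of all genes at D2 against D0 and 12.3% at D6 against D4. The means were 317 ± 18.1, 200 ± 40.6, 308 ± 23.0 and 155 ± 19.8 CPM (SD, n = 3 per day).

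The D6 level of Mest was 2.08-fold lower than at D0, a log2 fold change of -1.05 ± 0.15 (SE; limma-voom, adjusted p = 5.4e-08). From D4 to D6 alone it fell by 1.00 on the log2 scale (SE 0.16, adjusted p = 2.9e-06 by limma-voom). The D2 level differed from D0 by -0.62 ± 0.17 (adjusted p = 0.0099). This D2 call was lost without D0 replicate 2 (-0.53, adjusted p = 0.071), without D2 replicate 1 (-0.51, 0.064) and without D2 replicate 2 (-0.59, 0.090). It was also lost with library totals as the only scaling (-0.45, adjusted p = 0.069), with every library thinned to the size of the smallest (-0.50, 0.23) and with a mapping quality of at least 10 (-0.60, 0.34). D4 did not differ detectably from D0 (-0.05 ± 0.13, adjusted p = 0.83), and the rise from D2 to D4 (0.57 ± 0.18) just missed the threshold (adjusted p = 0.057) and passed it with limma-trend on log2(CPM + 1) (0.64, adjusted p = 0.024). D6 was not tested against D2. By sequencing run, unscaled Mest reads per 1000000 ranged from 266 to 311 at D0 and from 103 to 172 at D6. The genes whose log2 CPM followed Mest most closely over the 12 libraries, among 2795 genes with a mean of at least 20 reads, were Nsa2 (Pearson r = 0.902), Rps10 (0.897) and Slc25a11 (0.890).

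The 3 Mest transcripts share most of their exons, and the end of the gene overlaps Copg2 on the other strand. Only 30.7% of the Mest reads had a mapping quality of at least 10, the cause of which was not tested. With these reads alone the D6 difference from D0 was -0.68 and not called (adjusted p = 0.065), and the D4 difference turned to 0.58 (adjusted p = 0.060). All 329 of these reads were among the 338 that reached a first exon, described next, and they made up 24.7% of Mest reads (D0), 23.5% (D2), 40.96% (D4) and 31.8% (D6).

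To learn which Mest promoter the RNA came from, reads that covered at least 10 bases of an annotated first exon were counted. Mest has an upstream start, used by ENSMUST00000157040.7 (first exon chr6:30733506-30733613, 108 nt), and a downstream start, used by ENSMUST00000163949.8 (first exon chr6:30738050-30738335, 286 nt) and ENSMUST00000124665.2 (chr6:30738053-30738335, 283 nt). In all, 338 of the 1071 reads reached a first exon, and every one of them lay on the downstream exon. There were 116 such reads (D0), 27 (D2), 140 (D4) and 55 (D6). The upstream exon had 0 of 338, which allows a share of up to 0.888% over all days together, and of up to 2.59% at D0, 11.1% at D2, 2.14% at D4 and, with 55 reads, 5.45% at D6 (counting error only). The 217 reads that the table places on the upstream isoform began at base 140 or later of that transcript, within exons that the isoforms share, so they do not show use of the upstream start.

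The windows around these starts, from 250 bases before to 50 after, are printed because the reads distinguish them; they are RefSeq windows on GRCm38.p6 (mm10), plus strand, with each CG dinucleotide in capitals. The upstream window lies at chr6:30733256-30733555 and the downstream window at chr6:30737800-30738099.
Mest upstream start: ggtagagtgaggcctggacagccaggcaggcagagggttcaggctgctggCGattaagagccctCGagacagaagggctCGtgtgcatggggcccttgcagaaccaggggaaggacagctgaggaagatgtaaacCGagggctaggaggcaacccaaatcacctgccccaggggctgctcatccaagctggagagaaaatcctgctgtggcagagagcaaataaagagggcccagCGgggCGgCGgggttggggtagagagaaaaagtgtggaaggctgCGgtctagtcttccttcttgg
Mest downstream start: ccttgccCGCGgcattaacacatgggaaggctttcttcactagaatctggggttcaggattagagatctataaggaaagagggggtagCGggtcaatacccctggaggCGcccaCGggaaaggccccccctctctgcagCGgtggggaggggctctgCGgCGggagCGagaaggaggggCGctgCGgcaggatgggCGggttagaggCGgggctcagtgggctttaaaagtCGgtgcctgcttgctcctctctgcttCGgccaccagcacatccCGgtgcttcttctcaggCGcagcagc
The upstream window holds 8 CG dinucleotides and the downstream window, from which all first-exon reads came, holds 17. Among 32851 such windows of the genome the median is 7, 48.6% hold at least 8 and 31.4% hold at least 17 (94.6% hold at least 1). CG reads the same on both strands. Its methylation was not measured here.

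The share of Mest reads that reached the downstream first exon was 24.7% ± 7.35 (D0), 26.2% ± 9.29 (D2), 43.5% ± 11.2 (D4) and 33.4% ± 10.7 (D6, all SD, n = 3). D4 libraries were all above D0 libraries (30.7% to 51.7% against 16.3% to 29.7%), but with 3 against 3 the exact permutation test cannot go below 0.10, which is the p it gave. Reads over at least 90% of the transcript made up 20.1% ± 9.08 of Mest reads at D0 and 33.3% ± 10.4 at D4, and 7.50% ± 3.79 and 14.8% ± 4.96 of the reads on 3666 transcripts of 2300 to 2800 nt of other genes. D0 replicate 1 was the lowest library in both measures. Neither differed between D4 and D0 beyond the spread (two-sided exact permutation p = 0.3 for Mest and 0.2 for the other genes, D4 against D0).

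**Figure D2:**
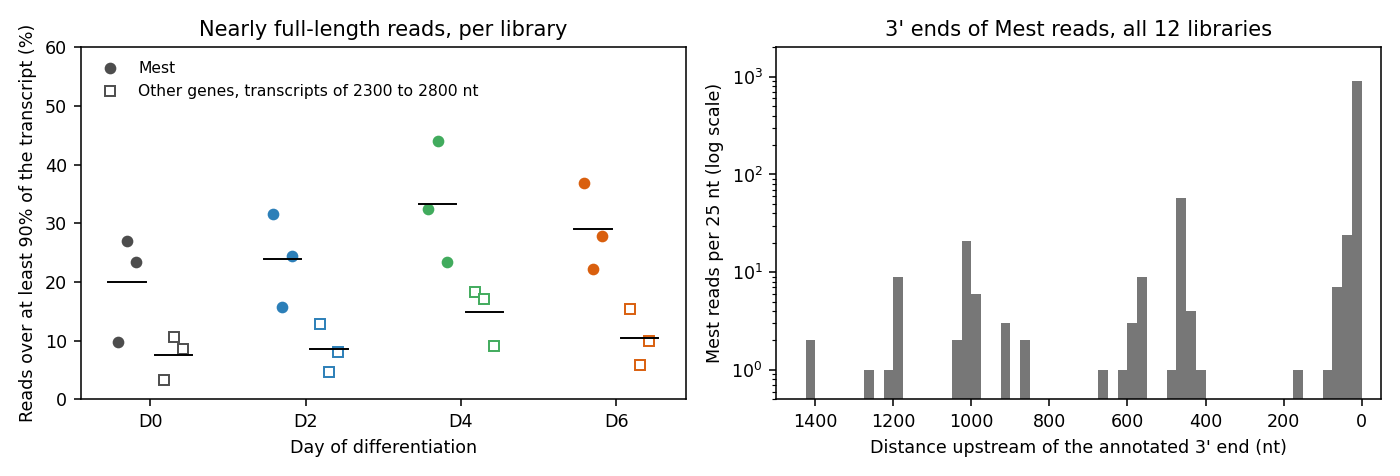
Left, the percentage of reads that cover at least 90% of their transcript in each library, for Mest (filled circles) and for other genes with transcripts of 2300 to 2800 nt (open squares), with the mean of each day as a line. Right, number of Mest reads per 25 nt (log scale) by the distance of their 3′ end upstream of the annotated end, all 12 libraries together. Mest lies above the other genes in every library, and most reads end at the annotated site with smaller groups near 460 and 1016 nt upstream.

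ENSMUST00000124665.2 differs from ENSMUST00000163949.8 by a 104-nt exon at chr6:30740240-30740343. Of the 338 reads with a first exon, 22 were on the isoform with this exon. Its share was 3.69% ± 1.31 (D0), 6.67% ± 5.77 (D2), 9.07% ± 3.86 (D4) and 7.14% ± 7.14 (D6, all SD, n = 3). The D4 libraries (6.56% to 13.5%) lay above the D0 libraries (2.38% to 5.0%), at the smallest exact permutation p of 0.10, and rested on 12 and 4 reads with the exon. When all reads were divided among the isoforms as in the table, none of the 3 shares differed between D6 and D0 beyond the spread (two-sided exact permutation p = 0.6 each). In the transcript-level fit all 3 isoforms were lower at D6, ENSMUST00000163949.8 by -0.89 ± 0.20, ENSMUST00000124665.2 by -1.10 ± 0.28 and ENSMUST00000157040.7 by -1.19 ± 0.32 (log2, SE; adjusted p = 0.00049, 0.0017 and 0.0029 by limma-voom), where 29.6% of 12356 transcripts were called and 14.6% were lower. None of the 733 reads short of the first exon had a mapping quality of at least 10, so their division among the isoforms is uncertain and these values do not show separate changes of each isoform.

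At the 3′ end, 941 of 1071 Mest reads (87.9%) stopped within 50 nt of the annotated end. A further 75 reads ended 400 to 600 nt upstream, 57 of them within 10 nt of chr6:30748002, and 42 ended 900 to 1250 nt upstream, 20 of them within 10 nt of chr6:30747446. Both positions lie in exon 12, the last of ENSMUST00000163949.8, and both have the polyadenylation hexamer AATAAA in the 40 bases before them and 7 A in the 20 bases after. The share of reads that ended over 100 nt upstream was 9.71% ± 2.26 (D0), 15.3% ± 5.15 (D2), 15.1% ± 3.95 (D4) and 11.01% ± 4.45 (D6, all SD, n = 3). All D4 libraries (11.9% to 19.5%) lay above all D0 libraries (7.14% to 11.4%), at the smallest exact permutation p of 0.10, while those of D2 and D6 overlapped D0 (exact permutation p = 0.2 and 0.7). The last 912 nt of Mest overlap the end of Copg2 on the other strand, and 236 Mest reads (22.0%) lay wholly inside this overlap. The alignment settings named by the study set no strand, so how these reads were split between both genes is uncertain.

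Peg10 (ENSMUSG00000092035.8, chr6:4747306-4760517, plus strand) had 235 reads, of which 183 came from D0. Its level was 117, 134 and 132 CPM in the D0 libraries and 32.8, 24.7 and 20.9 CPM at D2. It was 29.4, 11.9 and 16.3 CPM at D4 and 25.2, 16.8 and 10.98 CPM at D6. The D0 libraries stood apart from all others, as held in this direction for 18.2% of all genes at D2, 19.6% at D4 and 24.0% at D6, and the libraries of D2, D4 and D6 overlapped.

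Peg10 was 4.67-fold lower at D2 than at D0 (log2 -2.22 ± 0.38, adjusted p = 9.8e-06 by limma-voom), 7.21-fold lower at D4 (-2.85 ± 0.34, 4.2e-10) and 7.33-fold lower at D6 (-2.87 ± 0.34, 2.6e-10). Between D2 and D4 it changed by -0.63 ± 0.48 (adjusted p = 0.57) and between D4 and D6 by -0.02 ± 0.45 (adjusted p = 0.99), so the later days did not differ detectably at 14 to 19 reads per day. Both isoforms with at least 30 reads were lower at D6, ENSMUST00000176204.7 by -3.13 ± 0.49 and ENSMUST00000176551.2 by -2.80 ± 0.51 (log2, SE; adjusted p = 1.7e-06 and 2.6e-05). All Peg10 reads had a mapping quality under 10 and none of the 235 reached a first exon (median aligned length 822 nt), so the assignment to an isoform is uncertain. The gene level sums the isoforms, and whether the reads also match other loci was not tested. The isoform shares at D6 and D0 differed by less than the spread between libraries (exact permutation p = 0.6 and 1.0).

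Sgce, the sarcoglycan epsilon gene, lies head to head with Peg10 at chr6:4674350-4747207, 98 bases away, on the minus strand and in the same imprinted cluster. It is named here for its position and after its values were seen. Its level was 121, 66.3 and 93.3 CPM at D0 and 64.8, 44.1 and 63.1 CPM at D6, a log2 fold change of -0.68 ± 0.25 (adjusted p = 0.025 by limma-voom). Sgce was not called at D2 (-0.24, adjusted p = 0.69) or D4 (-0.29, adjusted p = 0.39), days on which Peg10 was called lower. Copg2, a coat protein gene that overlaps Mest, went from 102, 93.9 and 106 CPM at D0 to 61.2, 63.1 and 38.4 CPM at D6 (-0.89 ± 0.23, adjusted p = 0.0017). It was not called at D2 (-0.46, adjusted p = 0.30) or D4 (-0.47, adjusted p = 0.10). The Copg2 values carry the uncertainty given above, of how reads in the overlap were split between it and Mest.

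Igf2 (ENSMUSG00000048583.16, chr7:142650766-142666816, minus strand) had 98 reads. Its level was 12.1, 20.2 and 19.1 CPM at D0 and 0, 8.23 and 5.23 CPM at D2, from 3 reads in all. At D4 it was 46.3, 14.3 and 37.2 CPM and at D6 28.8, 18.9 and 54.9 CPM. Every D2 library was below every D0 and D4 library. Of all genes, 18.2% were lower without overlap at D2 than at D0, and 13.6% rose without overlap from D2 to D4. The D4 and D6 libraries spread from below the highest D0 library to over 2 times it.

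With 3 reads at D2 against 25 at D0, the ratio of D2 to D0 was 0.308 with a 95% counting interval of 0.0595 to 1.01 (exact binomial). In the fit the D2 difference was -1.34 ± 0.71 (adjusted p = 0.25 by limma-voom) and was not called. For D4 against D2 the ratio of pooled reads was 5.63, with a counting interval of 1.77 to 28.7. Both counting intervals pool the libraries of a day and leave out the spread between them. In the fit, which includes that spread, D4 stood 1.99 ± 0.70 above D2 on the log2 scale (adjusted p = 0.11). At D6 against D0 the difference was 0.78 ± 0.41 (adjusted p = 0.13). This value passed the threshold without D6 replicate 2 (1.29, adjusted p = 0.014), with library totals as the only scaling (1.04, 0.042; the median of all genes then stood at 0.26) and with a barcode confidence of at least 0.75 (1.24, 0.027). Without D4 replicate 2, D4 was called above both D0 (1.19, 0.029) and D2 (2.50, 0.025). It was also called above D2 with genes of at least 1 read (2.11, adjusted p = 0.034) and with limma-trend on log2(CPM + 1) (2.97, 0.022). A difference of Igf2 from D0 thus passed the test only in these alternatives, and the spread between libraries of one day was wide (34.2 ± 18.6 CPM at D6, SD, n = 3).

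Of the Igf2 reads, 85 were on ENSMUST00000000033.11 (chr7:142650766-142657496), 6 on ENSMUST00000105936.7, 5 on ENSMUST00000121128.7 and 2 on ENSMUST00000097936.8. These transcripts differ in their starts, and none of the 98 reads reached a first exon (median aligned length 784 nt, longest 2023 nt). The reads therefore do not show which of the Igf2 promoters was used.

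Peg3 (ENSMUSG00000002265.16, chr7:6703892-6730431, minus strand) had 84 reads. Its level was 24.3, 25.8 and 17.0 CPM at D0, 24.6, 16.5 and 10.5 CPM at D2, 16.8, 19.1 and 20.9 CPM at D4, and 18.0, 18.9 and 22.0 CPM at D6. The libraries of all days overlapped, and the D6 difference from D0 was -0.14 ± 0.38 (log2, SE; adjusted p = 0.81 by limma-voom). Its reads were divided between ENSMUST00000051209.10 (46) and ENSMUST00000239104.1 (38), neither of which differed between D6 and D0 (-0.46 ± 0.53 and 0.27 ± 0.58, adjusted p = 0.55 and 0.77). All Peg3 reads had a mapping quality under 10, so the assignment to an isoform is uncertain. The second identifier is not in the reference annotation used here.

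The 2 maternally expressed protein-coding members were barely seen. Igf2r (chr17:12682406-12769664) had 1 read, in D0 replicate 3, and Cdkn1c (chr7:143458339-143461050) had 1, in D0 replicate 1. With 1 read among 4274320, a level of up to 1.30 reads per 1000000 remains possible for each (upper bound of the exact 95% binomial interval). Dlk1 (chr12:109452823-109463336) had no PASS read, and its 1 line in the table carried an adapter tag. On another basis than that binomial bound, a limit of 3 reads for a count of 0, Dlk1 could reach 1.90 reads per 1000000 (D0), 5.50 (D2), 2.70 (D4) and 2.89 (D6). No direction can be given for these genes.

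H19 (chr7:142575529-142578143), Meg3 (chr12:109541001-109571726) and Rian (chr12:109603940-109661716) are noncoding RNAs, and no line of the table names them or any of their 38 annotated transcripts. The table lists 42061 transcripts, none with the biotype lincRNA, and only 13 of the 8541 transcripts of lincRNA genes (the class of H19 and Meg3) in the reference annotation. Of the 2240 transcripts of processed_transcript genes, the class of Rian, it lists 41. The 3 genes were not analysed here, and no level or upper limit is given for them.

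Poly(A) tails were read from the same molecules. Only Mest had the 10 reads in each library that the tail test required. Its median tail was 90.7, 99.1 and 104 nt in the D0 libraries, 122, 118 and 99.5 nt at D2, 94.0, 125 and 119 nt at D4, and 113, 134 and 104 nt at D6. Among genes with at least 4 reads in each library of the day, its mean of library medians was longer than that of 19.8% at D0 and 49.1% at D6. The lowest D6 library and the highest D0 library were both at 104 nt, and the difference of 19.1 nt (SE 7.46) was not called (adjusted p = 0.14 by limma weighted by reads; unadjusted 0.013). Of 3518 genes 5.97% were called at D6, 2.62% longer, and the median difference was 3.66 nt. At D4 the difference was 16.9 nt (SE 6.18, adjusted p = 0.19, with 3.98% of 3364 genes called) and at D2 13.02 nt (SE 7.82, adjusted p = 0.50, with 5.44% of 1800 genes called).

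The Mest result depended on the summary. With the mean tail of a library in place of its median, Mest was longer by 22.8 nt at D6 (adjusted p = 0.0096) and by 17.3 nt at D4 (adjusted p = 0.0498). Without D4 replicate 1 the D4 difference in medians was 23.3 nt and called (adjusted p = 0.027). Among the 454 reads at D0, 10 had tails under 30 nt and 189 had tails of 30 to 90 nt, and among the 170 at D6 these were 3 and 55. The share of 30 to 90 nt differed by -9.28 percentage points at D6 (SE 4.41, adjusted p = 0.33, limma), where 4.24% of all genes were called, and that under 30 nt differed by -0.44 points (SE 1.24, adjusted p = 0.95, with 1.14% called). Reads that reached the first exon and those that did not had median tails of 94.3 and 99.7 nt at D0, 119 and 103 nt at D2 (27 and 88 reads), 116 and 117 nt at D4, and 124 and 126 nt at D6.

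**Figure D3:**
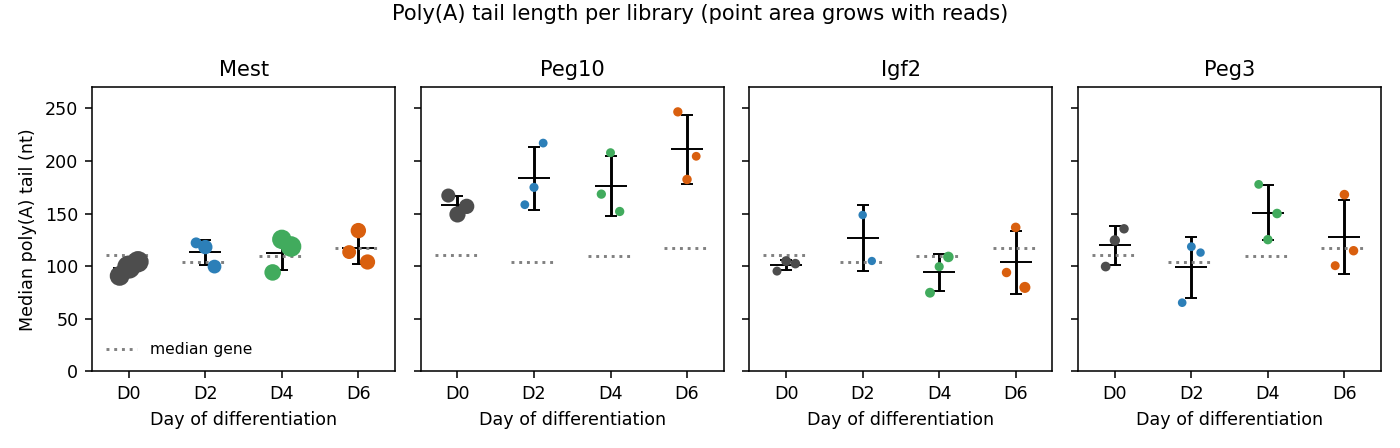
Median poly(A) tail length in nt (vertical axis) of Mest, Peg10, Igf2 and Peg3 by day. Points are libraries, with an area that grows with the number of reads, bars are the mean with its SD, and the dotted line is the median gene of that day. Peg10 lies above the dotted line in every library. All libraries of Mest and Igf2 at D0 and of Igf2 at D4 lie below it. Those of Peg3 at D4 and those of Igf2 with reads at D2 lie above it, and on the remaining days these genes fall on both sides.

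Peg10 had long tails on every day. Its median tail was 167, 149 and 157 nt in the D0 libraries, 158, 175 and 217 nt at D2, 168, 208 and 152 nt at D4, and 247, 182 and 204 nt at D6. At D0 its mean of library medians (158 ± 8.999 nt, SD, n = 3) was longer than that of 97.7% of the 7625 genes with at least 4 reads in each D0 library, whose median was 111 nt. At D6 it was 211 ± 32.6 nt, longer than 99.3% of 6987 genes, whose median was 117 nt. All D6 libraries lay above all D0 libraries (exact permutation p = 0.10, the smallest possible). In a fit that required only 3 reads per library, chosen after seeing the data, the difference was 54.2 nt (SE 19.7) and not called (adjusted p = 0.17), and it rested on 4 to 8 reads per library at D6.

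The tails of Igf2 and Peg3 rested on few reads, and with 3 against 3 libraries the exact test cannot go below 0.10. Library medians of Igf2 averaged 101 ± 4.95 nt at D0 and 103 ± 29.7 nt at D6 (SD, n = 3; exact permutation p = 1.0). Those of Peg3 averaged 120 ± 18.4 nt at D0, 151 ± 26.3 nt at D4 and 128 ± 35.6 nt at D6 (exact permutation p = 0.2 and 0.8 against D0). With 5 to 20 reads per library for Igf2 and 5 to 14 for Peg3 on D0 and D6, the SD of either gene at D6 was larger than the difference seen in Mest.

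To set the members beside the rest of the imprinted genes, a list of 54 others was examined, of which 39 had reads and 25 were tested. At D6 against D0, 14 of the 25 were called, 7 higher and 7 lower, where 37.7% of all genes were called (1771 higher and 1739 lower). Their median log2 fold change was 0.24. At D2, 4 were higher (Gnas, Ndn, Nnat and Peg12) and 5 lower (Magel2, Phlda2, Plagl1, Slc38a4 and Snrpn), and at D4 5 were higher (Gnas, Mkrn3, Ndn, Nnat and Peg12) and 7 lower, where 4.69% of all genes were higher and 6.16% lower at D2, and 12.9% higher and 12.5% lower at D4 (10.8% and 25.4% called in all). Without D0 replicate 2, D2 replicate 1 or D2 replicate 2 the 9 genes called at D2 became 5, 4 and 5, and with every library thinned to the size of the smallest they became 3 (12 became 3 at D4 and 14 became 5 at D6). As the plot of fold changes shows, imprinted genes moved both ways.

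**Figure D4:**
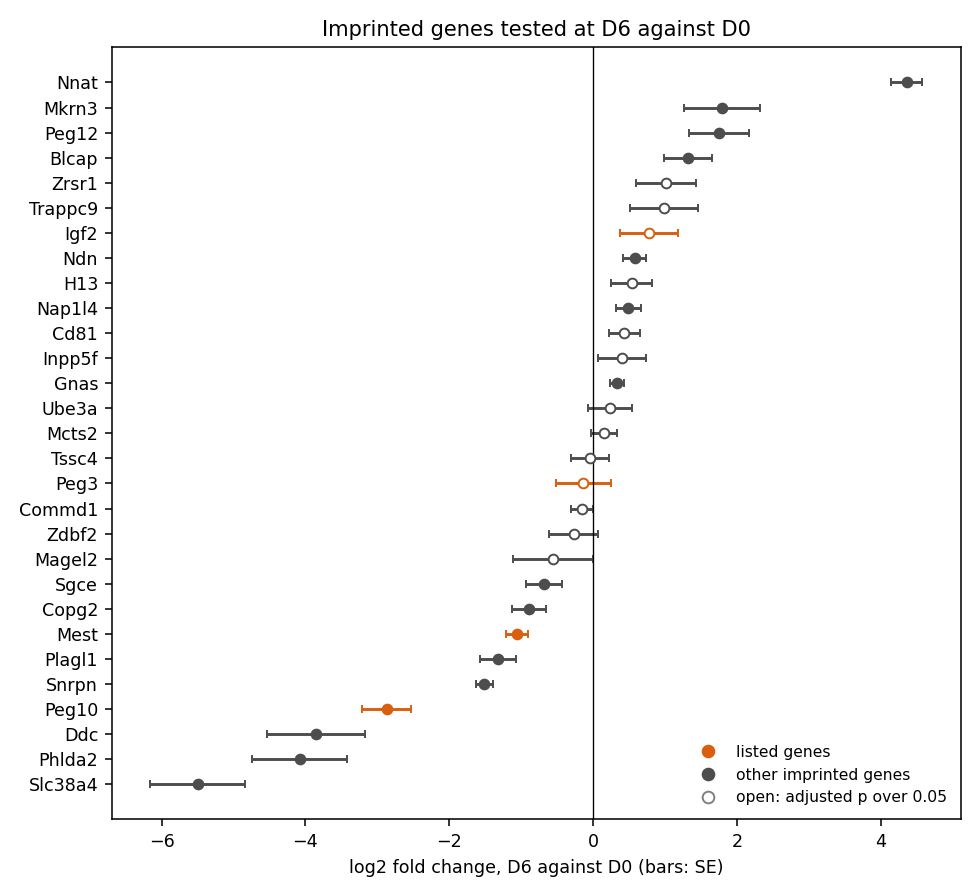
Log2 fold change at D6 against D0 (horizontal axis, bars the SE) of the 29 imprinted genes tested, 4 of the list (orange) and 25 others (grey). Filled points have an adjusted p of at most 0.05. Of the listed genes Peg10 and Mest lie to the left of 0 with filled points, and Igf2 and Peg3 have open points.

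The 6 called genes with the most reads in that list were Gnas, Snrpn, Nnat, Ndn, Nap1l4 and Copg2. Nnat, which encodes a small membrane protein of the developing brain, rose 20.5-fold from 38.9, 40.5 and 50.9 CPM at D0 to 1088, 771 and 936 CPM at D6 (log2 4.36 ± 0.22, adjusted p = 4.4e-26 by limma-voom). Snrpn and Ndn lie in one cluster on chromosome 7 and are both expressed from the paternal copy, and they moved in opposite directions. Snrpn, a splicing protein gene, was 872, 929 and 887 CPM at D0, 172, 128 and 162 CPM at D2 and 342, 290 and 318 CPM at D6 (D6 against D0 -1.51 ± 0.12, adjusted p = 2.2e-17). Ndn, which encodes necdin, was 138, 136 and 148 CPM at D0 and 216, 204 and 214 CPM at D6 (0.58 ± 0.16, adjusted p = 0.0029). Gnas, a G protein subunit gene, rose by 0.33 ± 0.10 (adjusted p = 0.0041) and Nap1l4, a histone chaperone gene, by 0.49 ± 0.18 (adjusted p = 0.023).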

How the data were processed

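Poly(A) RNA of P19 cells was sequenced directly on nanopores. Bases were called by the authors with Guppy, and reads were placed on mm10 transcripts by minimap2 2.20 and given tail lengths by Nanopolish. The deposited table has 1 line per aligned read, with tail length in nt, a mapping quality score by the authors' aligner, and the authors' barcode confidence, which is a fraction. A second deposited table, with the authors' own fold changes and p-values, was not used.

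Reads with the tag PASS and an assigned barcode were tallied per gene and library. Only nuclear transcripts of the mRNA class were kept. Genes with at least 30 reads were fitted over all 12 libraries with limma-voom (limma 3.58.1, R 4.3.3), trimmed-mean scaling (30% of ratios and 5% of levels trimmed), a pseudocount of 0.5 reads and Benjamini-Hochberg adjustment over all genes. CPM uses the same scaled library sizes. Fold changes are on the log2(CPM) scale. Median tails were compared by limma weighted by reads, on genes with at least 10 reads in each of the 6 libraries. For single values the exact permutation test (two-sided) was used. P-values measure the spread between replicates whose independence rests on the labels.

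On simulated counts for D6 against D0 (9309 genes), the fit recovered 97% of 100 genes changed 4-fold and 44% of 100 changed 2-fold. There were 10 false calls. Recovery was not measured separately for genes with few reads. The rates therefore do not show how often a change of Peg10, Igf2 or Peg3 would be called. Members and lists were chosen with earlier results of these data known. Of the lists, the 6 called genes with the most reads at D6 against D0 were named, as was any gene a small count stood for.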

Additional observations from a re-analysis of the deposited data

How the results depend on the processing

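The lower level of Peg10 at D2, D4 and D6 was called in each alternative that gave it a value and without each library; a mapping quality of at least 10 gave none for Peg10, Igf2 and Peg3. The lower level of Mest at D6 was called in each alternative except that one. Deviations from the day means correlated by -0.14 to 0.17 between same-numbered libraries (18 pairs, 4 of them over 0.1) and by -0.20 to 0.17 between other libraries. All same-numbered pairs among D2, D4 and D6 were positive (0.030 to 0.17), and whether replicates of one number belong together was not tested. With a replicate block 2, 1 and 2 members were called at D2, D4 and D6 against D0, as without it, and 11 other imprinted genes at D4 in place of 12. The number of members called (2, 1 and 2 at D2, D4 and D6 against D0) went to 1 at D2 with library totals alone or thinned libraries, and to 0 on all 3 with a mapping quality of at least 10. For D4 against D2 it went from 0 to 1 (Igf2) with genes of at least 1 read and to 2 (Igf2, Mest) with limma-trend on log2(CPM + 1). At D6 it was 3, with Igf2 higher, with library totals alone or a barcode confidence of at least 0.75. Leaving out 1 library gave 1 to 2 members at D2, 1 to 2 at D4, 2 to 3 at D6 and 0 to 1 for D4 against D2. Library totals alone moved the median of all genes from 0.00 to 0.26 at D6 and from -0.04 to 0.13 at D2.

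Other imprinted genes called went from 9 to 3 at D2, from 12 to 3 at D4, from 14 to 5 at D6, from 3 to 0 for D4 against D2 and from 3 to 1 for D6 against D4 with thinned libraries. At D4 they were 6 with a mean of at least 10 reads, which leaves fewer genes, and 7 with limma-trend. For D4 against D2 they were 0 with a mapping quality of at least 10 and 1 with only the 6 libraries, and for D6 against D4 they were 1 with a mapping quality of at least 10. Without 1 library they were 4 to 7 at D2 and 1 to 3 for D4 against D2. The mean tail length called Mest longer (1 member in place of 0) at D4 and D6, as did leaving out D4 replicate 1 for tail length and the 30 to 90 nt share at D4 (0 to 1 members each). The cause of these changes was not tested.

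Values that turned sign were uncalled. For abundance (log2), Mest at D4 became 0.061 with totals alone, 0.58 with a mapping quality of at least 10 and 0.010 with a barcode confidence of at least 0.75; Peg3 at D6 became 0.12 with totals alone, and for D4 against D2 -0.064 with that confidence and -0.013 with every quality tag; Igf2 for D6 against D4 became -0.029 with every tag. Peg10 for D6 against D4 became 0.017 with median-of-ratios factors, 0.12 with totals alone, 0.048 with a mean of at least 10 reads, 0.12 with that confidence and 0.32 with thinned libraries. Without 1 library the ranges were -0.10 to 0.014 for Mest at D4, -0.30 to 0.0018 for Peg3 at D6, -0.090 to 0.38 for Peg3 at D4 against D2, -0.020 to 0.11 for Peg3, -0.28 to 0.25 for Peg10 and -0.39 to 0.64 for Igf2 at D6 against D4. The Mest tail at D4 against D2 became -0.55 nt unweighted; without 1 library it was -3.84 to 10.3 nt, and -7.37 to 9.80 nt for D6 against D4. Its share under 30 nt became -0.21 points at D2 unweighted, -0.23 (25 nt) and -0.085 (replicate block) for D4 against D2, and without 1 library -0.77 to 0.92 at D2, -0.23 to 1.54 at D4, -1.40 to 0.55 at D6, -0.56 to 1.28 for D4 against D2 and -1.97 to 0.041 for D6 against D4. Its 30 to 90 nt share became 1.21 (D4 against D2) and -0.85 (D6 against D4) unweighted and -2.70 with limits of 35 and 85 nt, with ranges without 1 library of -3.55 to 2.41 and -3.49 to 4.52. Isoform shares at D6 against D0 became 3.29 points for ENSMUST00000124665.2 and -3.29 for ENSMUST00000163949.8 with a mapping quality of at least 10, and without 1 library ranged from -24.9 to 0.074 (ENSMUST00000176204.7), -8.11 to 7.97 (ENSMUST00000176551.2), -4.29 to 0.87 (ENSMUST00000124665.2) and -7.93 to 0.36 (ENSMUST00000157040.7).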

Other observations

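Several genes that act with Igf2 differed between D6 and D0. Of 15 genes of the insulin-like growth factor axis, 9 were tested and at D6 against D0 2 were higher and 4 lower (limma-voom, 37.7% of all genes called; median log2 fold change -0.18). Igfbp2, a secreted binding protein of the growth factors, was 1217 ± 62.2 CPM at D0, 447 ± 21.2 at D2 and 235 ± 15.2 at D6 (SD, n = 3; log2 -2.36 ± 0.12 at D6, adjusted p = 9.3e-26). Igfbp3 was 121 ± 12.2 CPM at D0 and 4.92 ± 3.05 at D6 (-4.31 ± 0.52, adjusted p = 3.3e-10), on 6 reads at D6. Igfbp5 had 1 read at D0 and 55 at D6, where it was 47.9 ± 7.62 CPM (adjusted p = 2.0e-09), and Igfbp4 rose by 0.94 ± 0.21 (adjusted p = 0.00018). Igf2bp1 and Igf2bp2, which encode proteins that bind Igf2 and other mRNAs, were lower (log2 -2.25 ± 0.25 and -0.91 ± 0.22, adjusted p = 4.5e-11 and 0.00050). Among the relatives of Cdkn1c, only Cdkn1b had enough reads, and it was higher at D6 (0.87 ± 0.26, adjusted p = 0.0060).

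Of 9 factors that maintain or set imprints, 7 were tested at D6 against D0, of which 2 were higher, 3 lower and 2 did not pass, where 37.7% of all genes were called (median log2 fold change -0.07). Zfp57, a zinc finger protein that binds methylated imprinting control regions, rose from 12.5 ± 9.02 CPM at D0 to 57.6 ± 15.8 at D6 (SD, n = 3; log2 2.42 ± 0.46, adjusted p = 1.7e-05 by limma-voom), and Zfp445, which acts in the same way, by 0.73 ± 0.29 (adjusted p = 0.043). Their corepressor Trim28 went from 472 ± 28.3 to 266 ± 24.2 CPM (-0.81 ± 0.13, adjusted p = 5.6e-07). Uhrf1, which recruits the maintenance methyltransferase, was lower (log2 -0.92 ± 0.26, adjusted p = 0.0036). Dnmt3a, a de novo methyltransferase, was 142 ± 22.3 CPM at D0, 50.6 ± 12.1 at D2 and 79.8 ± 4.21 at D6 (-0.78 ± 0.20 at D6, adjusted p = 0.0014). Methylation itself was not measured.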
